A study of Mus musculus with 2 samples.

Results

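The group described here is 9 of the 32285 genes in the feature lists: the guanylate-binding proteins *Gbp2*, *Gbp3*, *Gbp5* and *Gbp7*, the immunity-related GTPases *Irgm1*, *Igtp* and *Ifi47*, and the chemokines *Cxcl9* and *Cxcl10*. The genes were taken by symbol as genes known to be induced by interferon gamma (IFNγ), and all 9 were found. The study followed muscle mononuclear cells after acute sterile injury by single-cell RNA sequencing, and the question put to these data was in which cells, and on which day, the 9 genes were expressed. Both samples came from male wild-type (WT) C57BL/6J mice, 14 weeks old, whose quadriceps had been injected with BaCl2, a salt that kills muscle fibers. One library was made at day 1 and 1 at day 3 post-injury, each from the pooled and cryopreserved cells of 5 mice, after sorting by light scatter alone against debris and dead cells. No uninjured muscle was used here, so both days are days of injury and neither is a baseline.

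IFNγ is made mainly by activated NK and T cells. It binds the receptor chains IFNGR1 and IFNGR2, whose kinases JAK1 and JAK2 start a signal that reaches a DNA element called GAS. Many of the same genes also carry an interferon-stimulated response element (ISRE), which is read by IRF1 and by a complex that forms after type I interferons, so most of them can respond to either interferon. Guanylate-binding proteins (GBPs) and immunity-related GTPases (IRGs) are GTP-hydrolysing proteins that act on the membranes around intracellular microbes. CXCL9 and CXCL10 attract T and NK cells that carry the receptor CXCR3. In injured muscle, neutrophils and monocytes arrive first, monocytes become macrophages, and fibro-adipogenic progenitors (FAPs), the resident mesenchymal cells, expand.

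The promoters of the members are shown first because the letters of the ISRE core were common among them. Each line gives 30 bases around the match, read 5′ to 3′ on the strand of the gene from the RefSeq promoter windows of GRCm38.p6, with the matching letters in capitals.
*Gbp2*: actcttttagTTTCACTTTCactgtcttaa
*Gbp3*: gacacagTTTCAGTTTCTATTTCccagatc
*Gbp5*: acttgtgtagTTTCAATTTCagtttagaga
*Gbp7*: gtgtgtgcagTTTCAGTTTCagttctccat
*Irgm1*: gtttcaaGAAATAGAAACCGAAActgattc
*Igtp*: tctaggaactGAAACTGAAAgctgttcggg
*Cxcl10*: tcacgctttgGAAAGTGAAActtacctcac
The letters searched were GAAA, any 2 bases and GAAA or, for the other strand, TTTC, any 2 bases and TTTC, in the 250 bases before each annotated start. *Gbp3* and *Irgm1* each held 2 overlapping matches. The 4 *Gbp* genes lie in 1 gene cluster on chromosome 3, and their matches lie at chr3:142620594-142620623 (*Gbp2*), chr3:142559992-142560021 (*Gbp3*), chr3:142496759-142496788 (*Gbp5*) and chr3:142530273-142530302 (*Gbp7*), all on the plus strand. Those of the other genes lie at chr11:48871428-48871457 on the minus strand (*Irgm1*), chr11:58199512-58199541 on the plus strand (*Igtp*) and chr5:92349083-92349112 on the minus strand (*Cxcl10*). The match ended 50 bases before the start of *Gbp2*, 44 before that of *Gbp7*, 25 before that of *Igtp*, 156 before that of *Gbp5* and 204 before that of *Cxcl10*. In *Gbp3* the matches ended 30 and 36 bases before the start, and in *Irgm1* 15 and 21.

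The ISRE core was found in 7 of the 9 members and in 978 of 32851 promoter windows, or 2.98%. The windows of *Ifi47* and *Cxcl9* did not hold these letters. In a list of type I interferon response genes 10 of 22 genes with a window held it, and in other interferon-inducible GTPases 5 of 5. The GAS core, TTC, any 3 bases and GAA, which reads the same on both strands, was found in *Gbp5*, *Gbp7* and *Igtp*, and in 2306 of the 32851 windows, or 7.02%. A match is a run of letters in a short window and was not tested as a binding site.

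In all, 6735 cells of day 1 (median 9389 UMIs) and 4627 of day 3 (median 14548 UMIs) were kept, from libraries of 74852240 and 102565783 UMIs (unique molecular identifiers, 1 per captured RNA molecule). The levels below are in CPM, the UMIs of a gene per 1000000 UMIs of the same cells, with 95% exact Poisson intervals in brackets. A count of 0 was taken to allow up to 3 UMIs. Folds against that limit use the day 3 level without its interval, so they are not lower bounds. Shares of cells were compared after thinning each cell to 3000 UMIs, which left out 60 and 12 macrophage-like, 35 and 18 monocyte-like and 11 and 37 FAP-like cells of day 1 and day 3, and most neutrophil-like cells. With 1 library per day there was no replicate, no test and no p-value. The intervals cover counting error only, and where a few cells hold most UMIs of a gene they are too narrow. The lists of possible barcodes held 737280 barcodes on day 1 and 6794880 on day 3, although the labels give 1 chemistry, so chemistry and day cannot be told apart. The libraries shared 0 cell barcodes.

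Cell classes were named from marker lists, and the ending "-like" marks such a name. On day 1 and day 3 there were 2466 and 1262 macrophage-like, 499 and 918 monocyte-like, 659 and 841 FAP-like, 440 and 444 dendritic cell (DC)-like, and 2076 and 255 neutrophil-like cells. The other classes described were T/NK cell-like (11 and 42) and satellite cell/myoblast-like (5 and 209), and the T/NK cell-like cells came from clustering a small mixed cluster again, a step chosen after the data were seen. Of the 20 markers of the dendritic cell list, 3 were seen in at least 10% of the cells of its class on day 1 and 8 on day 3. Endothelial cell-like cells numbered 61 and 4. Cluster 8 (11 and 620 cells) and cluster 10 (486 and 10 cells) scored closest to the macrophage list but got no name. Within a class the days were held by different clusters. The macrophage-like cells of day 1 were in clusters 0 (led by *Cd163*, *Ppbp* and *Arg1*) and 2 (*Serpinb2*, *Il1a* and *Csf3*), and those of day 3 in clusters 6 (*Htr2b*, *Mcoln3* and *Gpnmb*) and 12 (the cell cycle genes *Neil3* and *Cdca5*, with *Slc13a3*). FAP-like cells were in cluster 7 on day 1 (*Ces1d*, *Il1rl1* and *Alpl*) and in cluster 5 on day 3 (*Tnn* and *Sfrp2*). Monocyte-like cells were mostly in cluster 11 on day 1 (*Ifitm6* and *Gm9733*) and in clusters 9 (*Ifit1bl1*, *Ifi208* and *Ifi213*) and 13 (*Ear2*, *Adgre4* and *Prtn3*) on day 3. Cluster 9, called the interferon-led cluster below, had 20 cells on day 1 and 553 on day 3, and its score for the monocyte list (0.520) was close to that for the macrophage list (0.451).

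The 7 GTPases together were expressed at a higher level on day 3 than on day 1. Over all cells they had 32.0 CPM (30.7 to 33.4) on day 1 and 109 CPM (107 to 112) on day 3, and the share of cells with a UMI of any of them was 7.40% and 23.6% thinned and 18.4% and 56.6% as deposited. All 7 were higher over all cells, with log2 ratios of day 3 over day 1 from 1.10 for *Gbp5* to 2.71 for *Gbp3*. On day 3 the order of the classes was monocyte-like (369 CPM), T/NK cell-like (217), FAP-like (117), neutrophil-like (90.1), DC-like (79.6), macrophage-like (65.6) and myoblast-like (6.86). T/NK cell-like cells were kept in it although they were under the minimum of 50 cells set for a class. Endothelial cell-like cells of day 3 (4 cells, 252 CPM, 126 to 451) were left out of it. The interval of the neutrophil-like cells (69.8 to 114) overlapped those of the FAP-like (113 to 121) and DC-like (72.1 to 87.7) cells, and those of the other neighbors in this order did not overlap. The day 3 order depended on the clustering. With 20 principal components macrophage-like cells had 127 CPM, DC-like 125, FAP-like 117 and monocyte-like 87.8. With the interferon genes left out of clustering DC-like cells had 144 CPM, monocyte-like 130, macrophage-like 122 and FAP-like 117. On day 1 the order was T/NK cell-like (167 CPM, 76.2 to 316), monocyte-like (90.8), neutrophil-like (43.1), DC-like (33.5), FAP-like and macrophage-like cells, both at 26.0 CPM, and endothelial cell-like cells (61 cells, 16.1 CPM, 8.04 to 28.8). The intervals of the T/NK cell-like and monocyte-like cells overlapped, as did those of the last 3 classes and those of neutrophil-like (37.7 to 49.2) and DC-like (28.9 to 38.6) cells. Myoblast-like cells, which had a higher median depth (44357 UMIs) and were taken as the class for comparison, gave a thinned share of 0.478% on day 3, against 14.7% in macrophage-like cells (20634 UMIs).

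**Figure D1:**
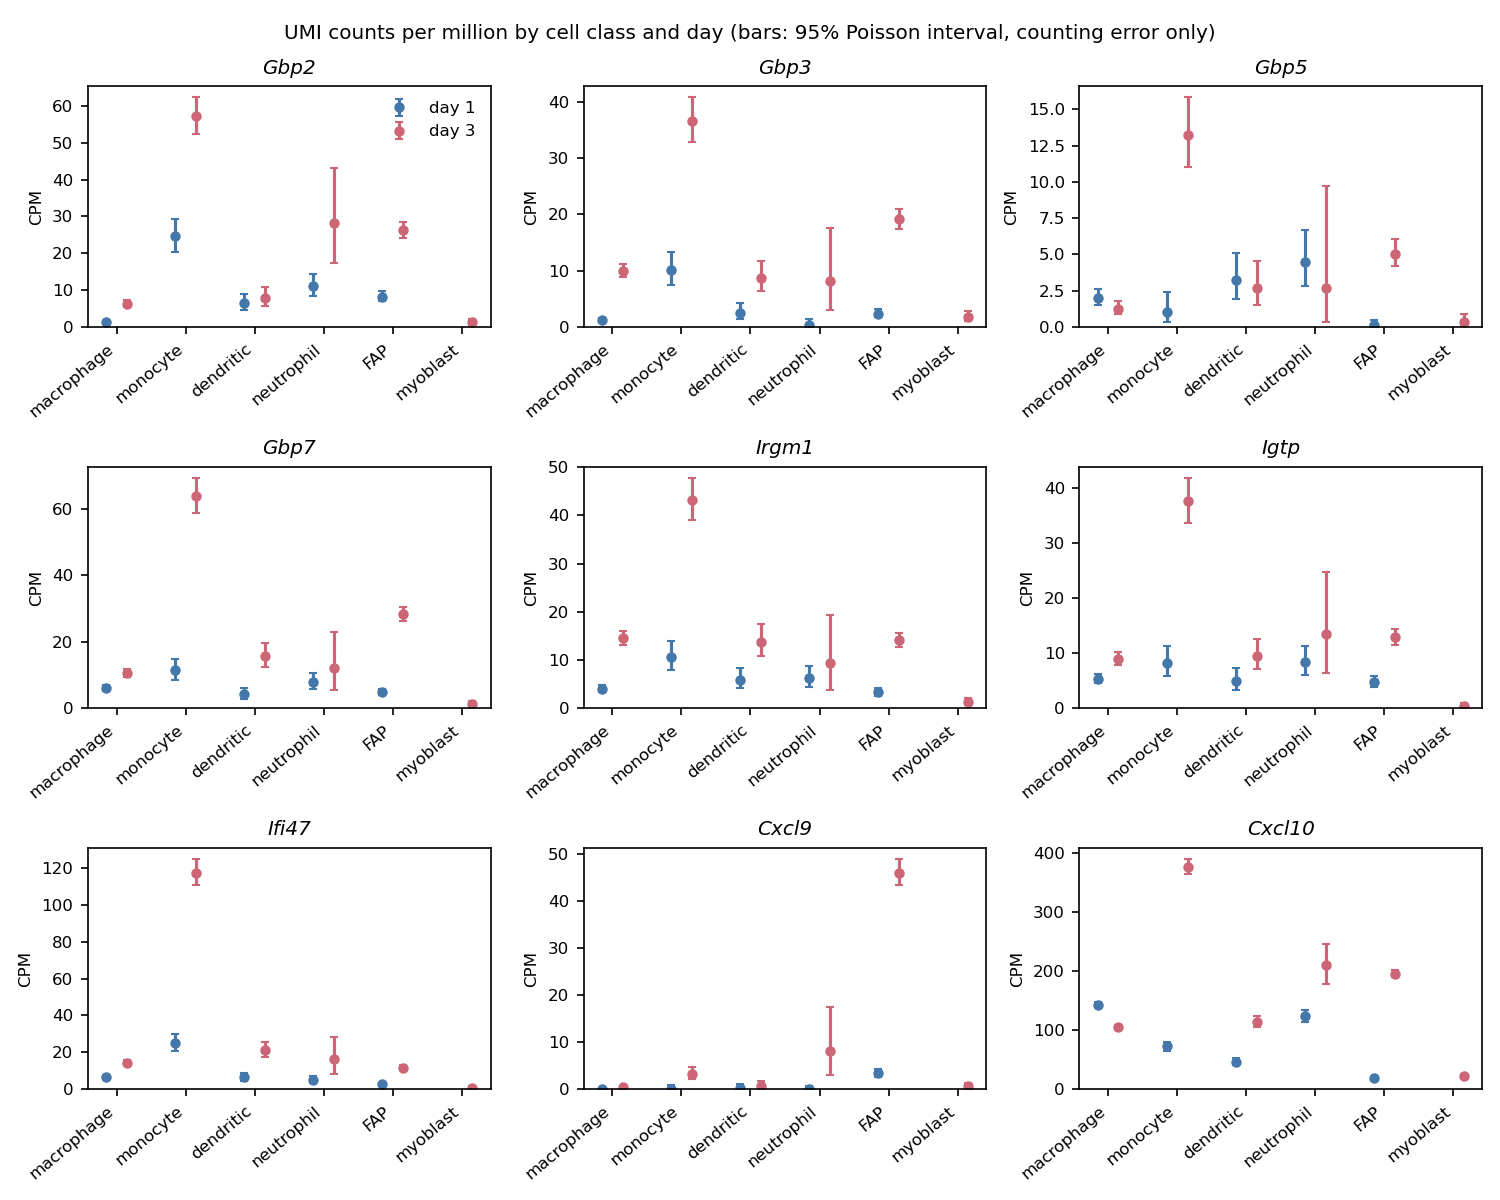
Level of each of the 9 genes (CPM, linear axes that differ between panels) in 6 cell classes, each marker-defined, on day 1 (blue) and day 3 (red). Points are the summed UMIs of a class in 1 library and bars are 95% Poisson intervals of counting error. *Ifi47* reached 118 CPM in monocyte-like cells of day 3, and 21.7 CPM in these cells without the interferon-led cluster. *Cxcl9* stood out in FAP-like cells (46.1 CPM), and *Cxcl10* was lower on day 3 only in macrophage-like cells of the classes drawn for both days.

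A gene was called higher or lower by size, at a log2 ratio of at least 1 or at most -1, among genes with at least 100 UMIs over both days in a class. Over all cells 8 of the 9 members were called higher, beside 26.1% of 13066 genes, with *Cxcl10* (89.3 and 151 CPM) the exception. In FAP-like cells 9 of the 9 members passed this minimum and 9 were called higher, where 21% of all 11199 genes were. In monocyte-like cells 8 passed and 8 were higher, beside 15.9% of 7582 genes. In DC-like cells 4 passed and 4 were higher, beside 11.7% of 7021 genes. In macrophage-like cells 7 passed and 4 were higher, beside 27% of 10088 genes. In neutrophil-like cells only *Cxcl10* passed and it was not called, beside 26.2% of 4205 genes. In monocyte-like, macrophage-like and unnamed myeloid clusters pooled 8 passed and 6 were higher, beside 27.4% of 10662 genes. In each of these comparisons 0 members were called lower, where 5.24% of genes were over all cells, 7.35% in FAP-like, 2.49% in monocyte-like, 3.69% in DC-like, 6.47% in macrophage-like and 10.2% in neutrophil-like cells, and 4.78% in the myeloid clusters together. The median log2 ratio of all genes tested was above 0 in each class (0.44 in macrophage-like, 0.29 in monocyte-like, 0.26 in FAP-like, 0.21 in DC-like and 0.29 in neutrophil-like cells). Counted from these medians, 9 members in FAP-like, 7 in monocyte-like, 4 in DC-like and 3 in macrophage-like cells were higher by at least 1. Of the members called higher within a single class, only *Gbp2* and *Cxcl10* in FAP-like cells, *Gbp2*, *Ifi47* and *Cxcl10* in monocyte-like cells, *Irgm1* and *Ifi47* in macrophage-like cells and *Cxcl10* in DC-like cells reached 100 UMIs on day 1. The others passed the minimum in these classes only with their UMIs of day 3, so the counts of calls are a description and support nothing. Over all cells each called member but *Cxcl9* (67 UMIs) reached 100 UMIs on day 1, and in the pooled myeloid clusters each but *Gbp3* (89 UMIs).

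**Figure D2:**
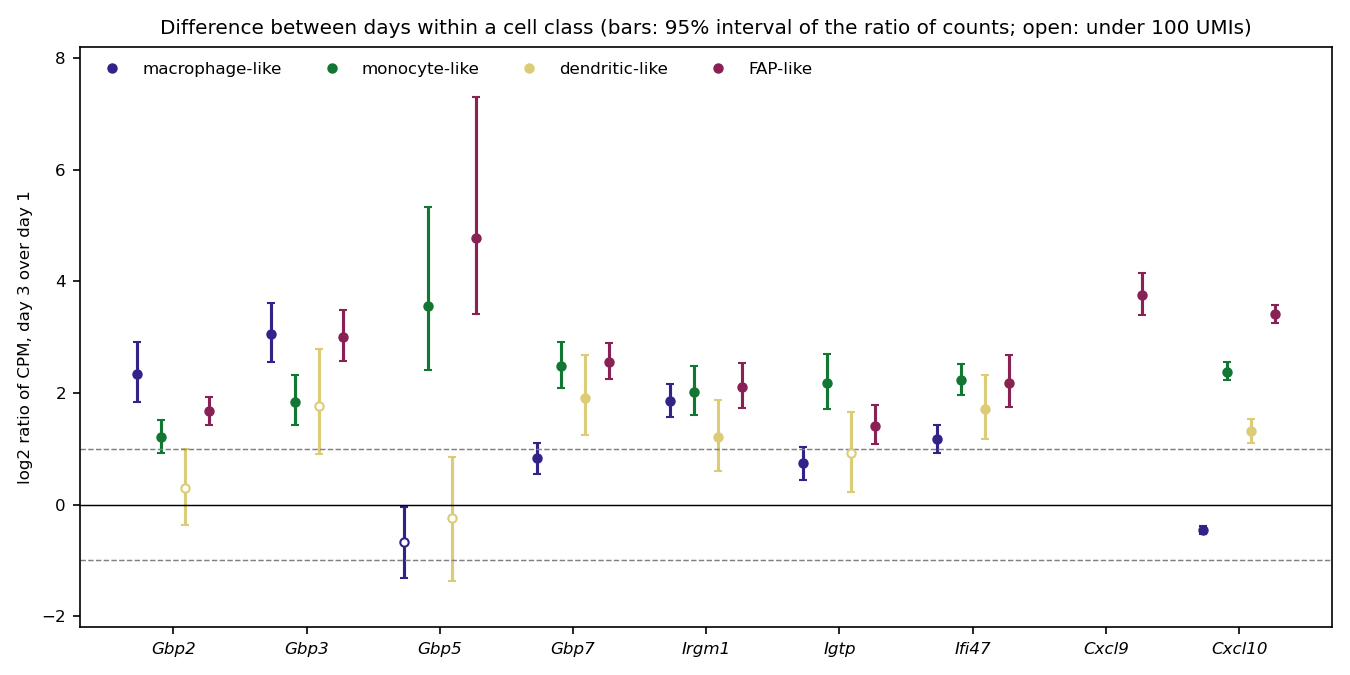
Log2 ratio of CPM, day 3 over day 1, of each gene in macrophage-like, monocyte-like, DC-like and FAP-like cells. Bars are 95% intervals of a ratio of counts, open points have under 100 UMIs, points with fewer than 3 UMIs on a day are left out, and dashed lines mark the size at which a gene was called. All FAP-like points lie above the upper line, and the macrophage-like points run from -0.66 (*Gbp5*) to 3.05 (*Gbp3*).

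Among the GBPs, *Gbp2*, whose protein is recruited to the vacuoles of intracellular parasites, had 8.24 CPM (6.99 to 9.63) on day 1 and 26.3 CPM (24.3 to 28.4) on day 3 in FAP-like cells. In monocyte-like cells it had 24.6 and 57.3 CPM, and in macrophage-like cells 1.22 and 6.26 CPM. It was thus lowest in macrophage-like cells on both days among these classes, although its log2 ratio there was 2.35 (1.84 to 2.92), against 1.67 in FAP-like and 1.22 in monocyte-like cells. In DC-like cells the intervals of both days overlapped (6.41 and 7.94 CPM). *Gbp3* was higher on day 3 in each of these classes, with 2.38 and 19.2 CPM in FAP-like, 1.19 and 9.93 CPM in macrophage-like, and 10.1 and 36.6 CPM in monocyte-like cells. Its log2 ratios of 3.00 (2.57 to 3.49) and 3.05 (2.56 to 3.61) in FAP-like and macrophage-like cells differed by less than their intervals.

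*Gbp7* had 4.75 and 28.2 CPM in FAP-like cells, 11.4 and 63.8 CPM in monocyte-like cells and 4.10 and 15.7 CPM in DC-like cells. In macrophage-like cells it had 5.86 CPM (5.03 to 6.79) and 10.4 CPM (9.23 to 11.7), a log2 ratio of 0.83 (0.55 to 1.11) that was not called and lay under those of the other 3 classes, whose lowest was 1.91. *Gbp5*, which promotes inflammasome assembly, went different ways. It had 3 UMIs on day 1 and 121 on day 3 in FAP-like cells (0.158 and 5.06 CPM), and 5 and 122 UMIs in monocyte-like cells (1.03 and 13.3 CPM). In macrophage-like cells it had 61 and 34 UMIs (2.01 and 1.26 CPM), a log2 ratio of -0.66 (-1.32 to -0.04), and 45 of the 61 UMIs of day 1 were in cluster 2. This ratio was above 0 under 4 of 13 other settings, among them the clustering on 20 principal components (0.87). The 4 *Gbp* genes are close paralogs in 1 gene cluster, and reads that fit more than 1 of them may be lost or misplaced by the counting.

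Among the IRGs, *Irgm1*, a regulator of the family and of autophagy, had 3.22 and 14.0 CPM in FAP-like cells, 3.99 and 14.5 CPM in macrophage-like cells and 10.5 and 43.2 CPM in monocyte-like cells. Its log2 ratios were close to each other in these classes, 2.12 (1.73 to 2.54), 1.86 (1.56 to 2.17) and 2.03 (1.61 to 2.49), with overlapping intervals. In DC-like cells it was 1.21 (0.61 to 1.87). The monocyte-like ratio rested on the interferon-led cluster. Without that cluster *Irgm1* had 9.27 CPM (6.71 to 12.5) and 12.3 CPM (8.72 to 16.8) in monocyte-like cells, with overlapping intervals. *Igtp*, another regulator of the family, had 5.34 CPM (4.55 to 6.22) and 8.93 CPM (7.84 to 10.1) in macrophage-like cells, a log2 ratio of 0.74 that was not called. It had 4.80 and 12.9 CPM in FAP-like cells and 8.26 and 37.6 CPM in monocyte-like cells (6.47 and 7.86 CPM without the interferon-led cluster). *Igtp* overlaps *Irgm2* on the same strand of chromosome 11, so reads of the shared stretch may have been dropped.

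*Ifi47*, an IRG of the effector kind, had 25.0 CPM (20.7 to 29.8) and 118 CPM (111 to 125) in monocyte-like cells, which held 53.7% of its UMIs of day 3. Without the interferon-led cluster these cells had 17.9 and 21.7 CPM and held 3.42% of its UMIs of day 3. FAP-like cells were lower, with 2.48 and 11.4 CPM, and so were macrophage-like cells, with 6.36 and 14.3 CPM. In DC-like cells it had 6.41 and 21.3 CPM. The thinned share of cells with a UMI of *Ifi47* on day 3 was 21.6% of monocyte-like, 6.88% of DC-like, 4% of macrophage-like and 2.74% of FAP-like cells. It was 5.68% of monocyte-like cells without the interferon-led cluster.

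Summed over the 7 GTPases, the log2 ratio was 2.17 (2.03 to 2.31) in FAP-like, 2.02 (1.88 to 2.17) in monocyte-like, 1.34 (1.22 to 1.46) in macrophage-like, 1.25 (1.00 to 1.51) in DC-like and 1.07 (0.65 to 1.46) in neutrophil-like cells. The FAP-like and monocyte-like intervals lay above the macrophage-like one. In the neutrophil-like cells of day 3 free RNA was estimated at 38.2% of UMIs. The macrophage-like value was above 1 under 13 of 13 other settings, but it rose to 2.16 with 20 principal components and to 2.14 with the interferon genes left out of clustering, where the macrophage-like cells of day 3 numbered 2495 and 2377. The summed level of T/NK cell markers in macrophage-like cells was 58.0 and 81.5 CPM on the 2 days, with 13 and 12 of 26 markers at 0, and that of neutrophil markers was 1300 and 103 CPM, with 2 and 3 of 17 at 0; their part in the ratios was not tested.

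The monocyte-like value rested on the interferon-led cluster, and it was -0.16 with 20 principal components, where the monocyte-like cells of day 3 numbered 337. In the interferon-led cluster, which was formed on other interferon genes since the members were kept out of clustering, the 7 GTPases had 570 CPM (471 to 683) in 20 cells of day 1 and 519 CPM (501 to 537) in 553 cells of day 3, so the level was high on both days and the intervals overlapped. *Gbp2* was lower there on day 3, 195 CPM (139 to 265) on day 1 and 82.7 CPM (75.6 to 90.3) on day 3. In monocyte-like cells without this cluster, the GTPases had 69.6 and 86.8 CPM, a log2 ratio of 0.32 (0.08 to 0.55), and 2 of the 4 members with enough UMIs, *Gbp7* and *Cxcl10*, were called higher and 0 lower, beside 6.59% and 1.68% of 5889 genes. In these cells *Gbp2* had 17.0 and 9.12 CPM, *Gbp3* 8.62 and 13.5 CPM, *Gbp7* 9.70 and 20.8 CPM, and *Gbp5* 3 and 5 UMIs. The cells of the interferon-led cluster carried several of the GTPases at once: after thinning, 13.7% of its 548 cells of day 3 had UMIs of at least 3 of the 7 genes, against 1.76% of cluster 5 and 0.485% of cluster 6.

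**Figure D3:**
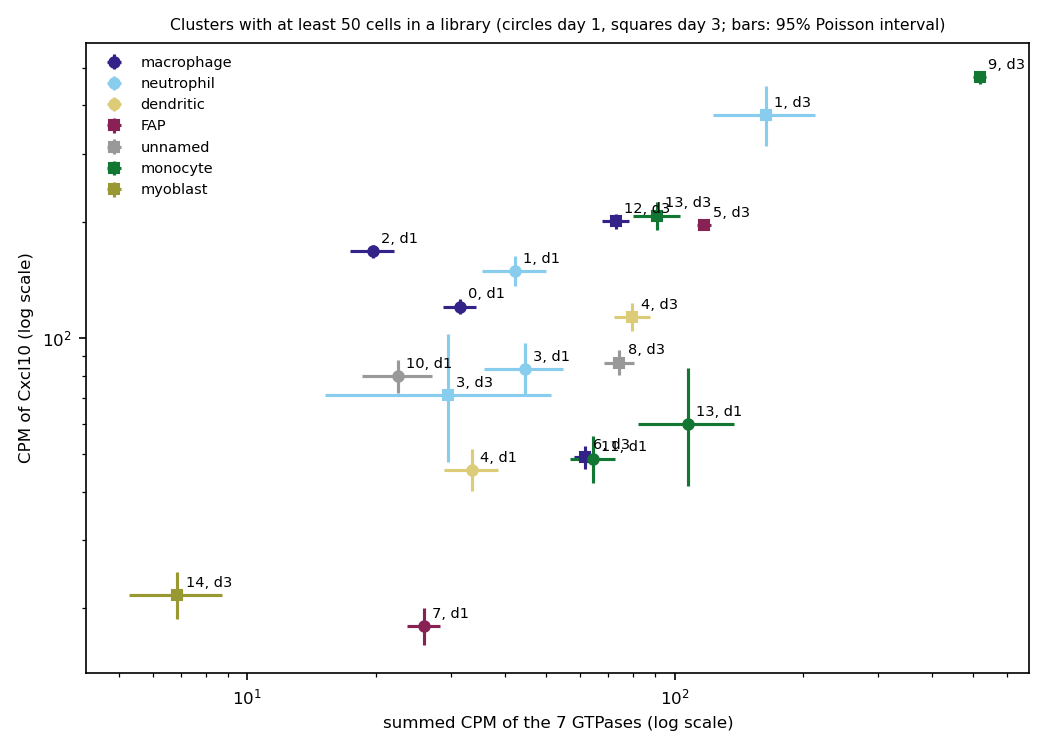
Summed CPM of the 7 GTPases (horizontal, log scale) and CPM of *Cxcl10* (vertical, log scale) in the 19 combinations of cluster and day with at least 50 cells. Circles are day 1, squares day 3, numbers name the clusters, colors their marker-defined class, and bars are 95% Poisson intervals. The interferon-led cluster 9 lies at the upper right, with 519 CPM of GTPases and 473 CPM of *Cxcl10*, and the FAP-like cells moved from cluster 7 (25.9 and 18.0 CPM) on day 1 to cluster 5 (117 and 196 CPM) on day 3.

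The share of *Cxcl10* UMIs in FAP-like cells was higher on day 3, while myeloid cells pooled held most on both days. On day 1 macrophage-like cells held 68.1% of its 6350 UMIs and FAP-like cells 5.46%, and on day 3 FAP-like cells held 36.8% of 12685 UMIs, monocyte-like cells 27.3% and macrophage-like cells 22.1%. The macrophage-like, monocyte-like and unnamed myeloid clusters pooled held 80.2% on day 1 and 55.4% on day 3. In FAP-like cells it had 18.3 CPM (16.4 to 20.4) on day 1 and 195 CPM (190 to 201) on day 3, a log2 ratio of 3.41 (3.25 to 3.57). Free RNA was estimated to account for 30.3% of the FAP-like value of day 1 and 1.46% of that of day 3. The thinned share of FAP-like cells with a *Cxcl10* UMI was 2.78% and 24.4%, and 13.4% and 53.0% as deposited. In myoblast-like cells of day 3, the class for comparison, it had 21.6 CPM and a thinned share of 4.31%, at a higher median depth (44357 UMIs against 25431). As deposited 32.1% of these cells had a *Cxcl10* UMI. Free RNA was estimated to account for 5.84% of their level, and the source of that level was not tested. The estimate rests on the neutrophil genes *S100a8*, *S100a9* and *Retnlg*. It is rough, since it came to 106% of the *Cxcl10* level in endothelial cell-like cells of day 1.

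In macrophage-like cells *Cxcl10* had 142 CPM (138 to 147) on day 1 and 104 CPM (100.3 to 108) on day 3, a log2 ratio of -0.45 (-0.52 to -0.38), and the share of cells with a UMI was 16.0% and 11.2% thinned and 28.2% and 26.9% as deposited. The clusters behind these means were far apart. On day 1 cluster 2 had 168 CPM and cluster 0 had 121 CPM, whereas on day 3 cluster 12 had 200.4 CPM and cluster 6 had 49.1 CPM. The direction depended on which cells were called macrophages: the log2 ratio was 0.17 with 20 principal components, 0.16 with each cell named by its own marker score, and 0.32 with monocyte-like and unnamed myeloid clusters included. *Cxcl10* was higher on day 3 in monocyte-like cells (72.0 and 377 CPM), also without the interferon-led cluster (50.01 and 195 CPM), and in DC-like cells (45.6 and 113 CPM). Neutrophil-like cells had 124 and 210 CPM (178 to 245).

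*Cxcl9* was almost confined to FAP-like cells in these libraries. They held 64 of 67 UMIs (95.5%) on day 1 and 1102 of 1163 (94.8%) on day 3, with 3.38 CPM (2.60 to 4.31) and 46.1 CPM (43.4 to 48.9) and a log2 ratio of 3.76 (3.41 to 4.16). In macrophage-like cells, a class known to express *Cxcl9* after IFNγ, there was 1 UMI on day 1 and 9 on day 3 (0.0329 and 0.334 CPM). Free RNA was estimated at 61.6% of that level on day 3, and myoblast-like cells had 0.528 CPM (0.171 to 1.23), so the macrophage-like level was not above that of the class for comparison. With 20 principal components the macrophage-like cells of day 3 had 0.981 CPM, within the same interval. Monocyte-like cells had 0 UMIs on day 1, which allows up to 0.619 CPM, and 30 UMIs on day 3 (3.26 CPM, 5.26-fold that limit), of which 29 were in the interferon-led cluster. The share of the day 3 UMIs in FAP-like cells was 80.4% at a resolution of 1.6. At that resolution the FAP-like class of day 3 numbered 618 cells instead of 841, and it had 52.5 CPM of *Cxcl9*.

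The FAP-like *Cxcl9* UMIs were uneven between cells. On day 3, 173 of 841 cells (20.6%) had at least 1, the 10 richest cells held 52.1% and 1 cell held 105. On day 1, 13 of 659 cells had any, and 2 cells held at least 50% of the UMIs. Without the 10 richest cells of day 3 the log2 ratio was 2.72, so a few cells set much of the level. *Cxcl10* was spread more widely, with 45 cells of day 3 holding 50% of its FAP-like UMIs and the 10 richest cells 28.3%.

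FAP-like cells with a *Cxcl9* UMI were compared on day 3 with those without, at 3000 UMIs per cell, as a description of cells of 1 library. There were 49 with (median 26002 UMIs before thinning) and 755 without (26314 UMIs). The 7 GTPases had 374 CPM in the former and 94.9 CPM in the latter. *Gbp2* had 163 CPM (105 to 243) and 18.1 CPM, *Ifi47* 40.8 CPM (14.98 to 88.8) and 7.06 CPM, and *Cxcl10* 1061 and 145 CPM. *Irgm1* was near equal, with 13.6 CPM (1.65 to 49.1) and 14.6 CPM. The intervals of *Gbp3*, *Gbp5*, *Gbp7* and *Igtp* also overlapped between the cells with and without *Cxcl9*. *Gbp2* gave 24 of the 55 GTPase UMIs in the cells with *Cxcl9*. Genes chosen after their values were seen were *Isg15* (490 and 109 CPM), *Ifit3* (286 and 29.6 CPM), the fibroblast gene *Pdgfra* (327 and 260 CPM) and the leukocyte gene *Ptprc* (34.0 and 30.02 CPM). On day 1 the 6 thinned cells with a *Cxcl9* UMI had 0 UMIs of the GTPases, too few cells to compare.

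**Figure D4:**
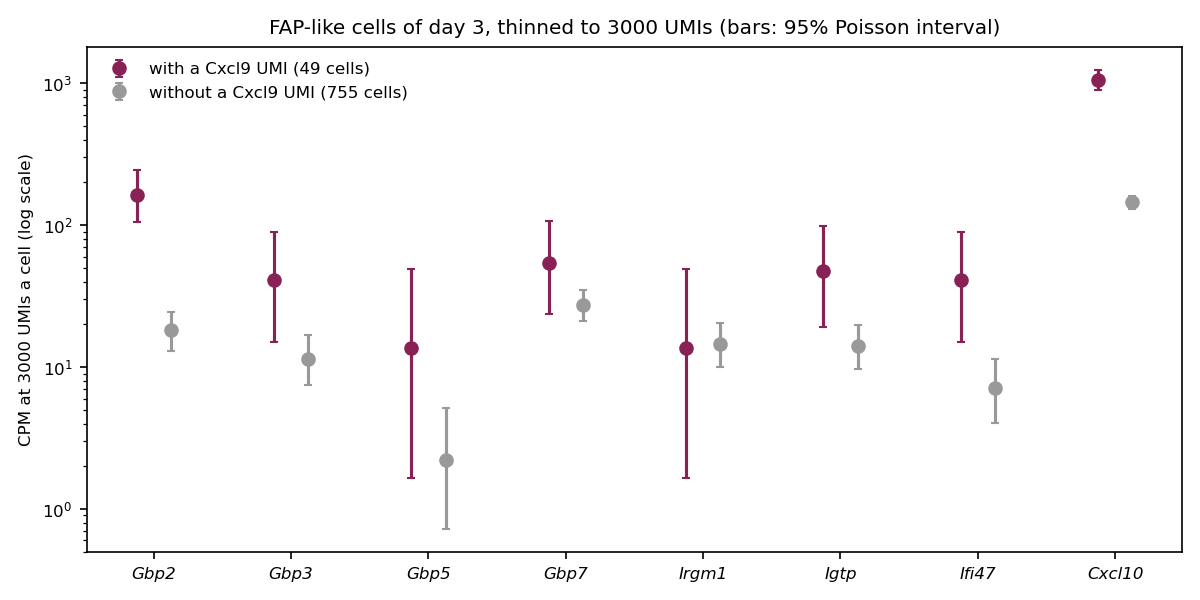
Level of 8 members (CPM, log scale) in FAP-like cells of day 3 thinned to 3000 UMIs, for the 49 cells with a *Cxcl9* UMI and the 755 without. Bars are 95% Poisson intervals. *Gbp2*, *Ifi47* and *Cxcl10* were higher in the cells with *Cxcl9*, without overlap of the intervals. The intervals of *Gbp3*, *Gbp5*, *Gbp7*, *Igtp* and *Irgm1* overlapped.

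Each of the 18 markers of the FAP list was seen in at least 10% of the FAP-like cells on both days, with a summed level of 9481 CPM on day 1 and 30440.4 CPM on day 3, so the class kept its label while its matrix genes differed. Markers of other cells moved as well. The macrophage list, some of whose genes FAPs also express, summed to 3427 and 7502 CPM with 0 of 24 at 0, the neutrophil list to 792 and 133 CPM with 0 and 3 of 17 at 0, and the T/NK list, which holds *Ccl5*, to 7.39 and 27.7 CPM with 12 and 9 of 26 at 0. Their part in the FAP-like values was not tested.

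*Ifng* itself was seen only on day 3. It had 0 UMIs among 71141227 on day 1, which allows up to 0.0422 CPM, and 69 UMIs on day 3 (0.820 CPM, 0.638 to 1.04), 19.4-fold that limit. Of those, 60 (87.0%) were in 18 of the 42 T/NK cell-like cells (led by *Gzma*, *Klra4* and *Prf1*), at 419 CPM (320 to 540). The 11 T/NK cell-like cells of day 1 had 0 UMIs, which allows up to 55.5 CPM and 27.3% of cells with a UMI. The CPM of this class on day 3 was 7.55-fold that limit. Another 8 UMIs were in 2 cells of the interferon-led cluster and 1 in a FAP-like cell. The T/NK cell-like cells were 0.163% of cells on day 1 and 0.908% on day 3.

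**Figure D5:**
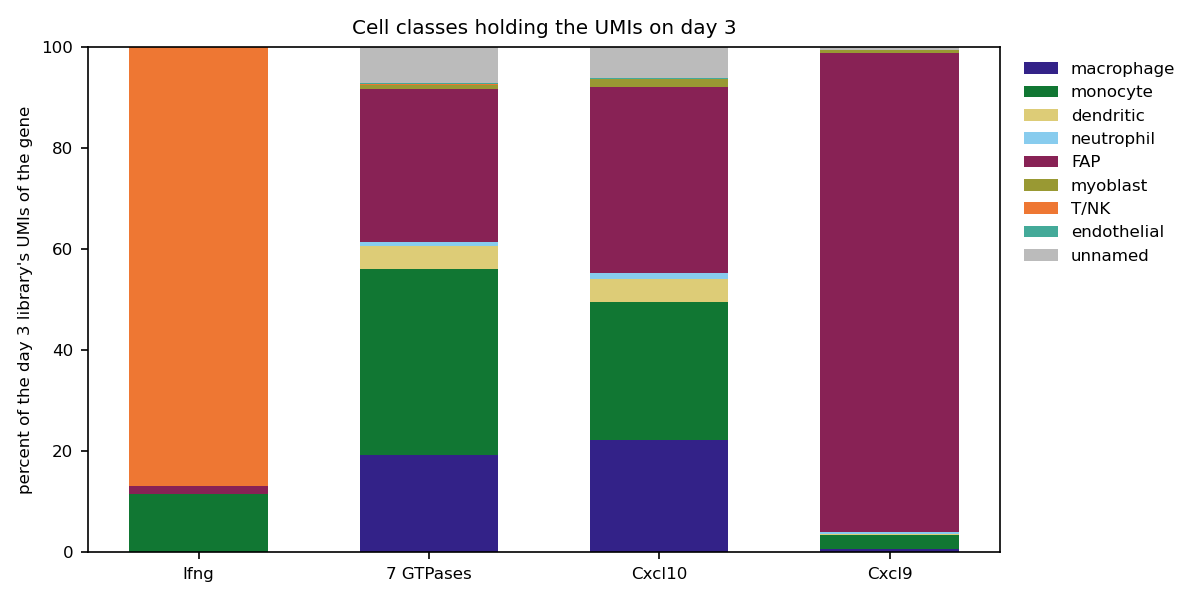
Percent of the day 3 library's UMIs of *Ifng*, of the 7 GTPases summed, of *Cxcl10* and of *Cxcl9* that each marker-defined cell class held. *Ifng* was mostly in T/NK cell-like cells (87.0%), *Cxcl9* in FAP-like cells (94.8%), and the GTPases were spread over monocyte-like (36.9%), FAP-like (30.4%) and macrophage-like (19.2%) cells.

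The receptor chains were detected in each of the 5 classes compared and were not called in any. *Ifngr1*, the ligand-binding chain, had 118 and 106 CPM in FAP-like, 123 and 93.2 CPM in macrophage-like, 194 and 218 CPM in monocyte-like and 191 and 258 CPM in DC-like cells. *Ifngr2*, the signaling chain, had 50.8 and 48.2 CPM in FAP-like and 95.02 and 102 CPM in macrophage-like cells.

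Of the signal chain, in FAP-like cells 5 of the 11 measured genes were called higher and 0 lower (median log2 ratio 0.79, beside 0.26 over all genes), where 21% and 7.35% of all genes were, among them *Jak2* (23.4 and 97.5 CPM). In macrophage-like cells 2 of 12 were higher and 4 lower (median 0.08, beside 0.44), where 27% and 6.47% of all genes were. In DC-like cells 5 of 12 were higher and 1 lower, beside 11.7% and 3.69% of all genes. In neutrophil-like cells 2 of 9 were higher and 2 lower, beside 26.2% and 10.2% of all genes. In macrophage-like cells *Irf8*, a myeloid partner of IRF1, was higher (76.6 and 167 CPM), and *Jak2* was lower (37.9 and 18.1 CPM). *Irf1*, an early target of IFNγ, fell in macrophage-like cells from 54.5 to 17.7 CPM, and in FAP-like cells it had 50.3 and 63.1 CPM (log2 ratio 0.33). *Socs3*, a feedback inhibitor of JAK signaling, fell from 421 to 54.1 CPM in macrophage-like cells. *Jak1* (128 and 222 CPM in FAP-like cells) and the feedback inhibitor *Socs1* (26.7 and 31.7 CPM) were not called. *Ciita*, the master regulator of MHC class II genes, reached 100 UMIs only in DC-like cells of these classes, with 21.2 and 62.9 CPM. In monocyte-like cells 5 of 12 were higher and 0 lower, beside 15.9% and 2.49% of all genes, with *Irf8* at 60.1 and 132 CPM. In the same cells without the interferon-led cluster 1 of 10 was higher and 0 lower, beside 6.59% and 1.68%. There *Irf8* had 58.2 and 79.5 CPM (log2 ratio 0.45).

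Of 17 other interferon-inducible GTPases listed, 12 were in the feature lists. Those that passed the minimum did so mostly through day 3, so their calls too are a description. In FAP-like cells 4 of 4 with enough UMIs were higher (median 2.53), beside 21% of all genes. Among them were *Iigp1*, an effector IRG, at 3.64 and 42.0 CPM and *Gbp9* at 0.95 and 4.06 CPM. In macrophage-like cells 2 of 2 were higher, beside 27% of all genes. They were *Gbp9* (15 and 133 UMIs, 0.494 and 4.93 CPM) and *Irgm2* (36 and 132 UMIs, 1.19 and 4.89 CPM), and *Iigp1* had 3 and 9 UMIs. In monocyte-like cells 4 of 4 were higher, beside 15.9% of all genes. There *Iigp1*, which passed through day 3 alone, had 0 UMIs on day 1 and 119 on day 3 (12.9 CPM). That level was 20.9-fold the limit that 0 UMIs allow.

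Other targets of IFNγ did not move as 1 group. In macrophage-like cells 1 of 13 was higher and 4 were lower (median -0.27), beside 27% and 6.47% of all genes, *Psmb9*, a subunit of the immunoproteasome, being higher (15.6 and 52.6 CPM) and the T cell attractant *Ccl5* lower (16.3 and 0.889 CPM). In FAP-like cells 5 of 13 were higher and 2 lower, beside 21% and 7.35% of all genes, and their median of 0.25 was close to the 0.26 of all genes. There *Serpina3g*, a protease inhibitor, had 0 UMIs on day 1 and 257 on day 3 (10.7 CPM, 67.9-fold the limit that 0 UMIs allow). It passed the minimum through day 3 alone, so the counts of calls are a description here too. *Ccl5* had 1.43 and 12.8 CPM in these cells, and *Fgl2* fell from 192 to 66.5 CPM. *Ccl5* and *Jak2* were thus called in opposite directions in FAP-like and macrophage-like cells. The FAP-like *Ccl5* of day 3 was held by few cells: at 3000 UMIs per cell it had 408 CPM in the 49 cells with a *Cxcl9* UMI, from 4.08% of them, and 1.32 CPM in the 755 without.

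Of the type I interferon response list, 25 of 26 genes were called higher in FAP-like cells (median 2.11), where 21% of all genes were, and 23 of 25 in monocyte-like cells, where 15.9% were. Without the interferon-led cluster 6 of 16 were called, beside 6.59%. In DC-like cells 14 of 18 were called, beside 11.7%, in macrophage-like cells 13 of 25 (median 1.11), beside 27%, and in neutrophil-like cells 3 of 12 (median -0.14), beside 26.2%, with 0 lower in each. In FAP-like cells the range was from *Oas1a* (4.38 and 8.49 CPM) to *Ifi44* (0.106 and 13.8 CPM), both products of interferon signaling with antiviral roles. In macrophage-like cells it was from *Oas1a* (35.6 and 21.5 CPM) to *Ifit3b* (0.0988 and 4.41 CPM). *Ifi44* in FAP-like cells and *Ifit3b* in macrophage-like cells passed the minimum only with their UMIs of day 3. How many other genes of the list did so was not counted, so these calls too are a description. *Ifnb1*, which encodes interferon beta, had 28 UMIs in macrophage-like cells on day 1 and 2 on day 3. Which interferon acted on the 9 genes was not tested.

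Cytokines known to raise IFNγ output were partly detected. *Il15*, a survival factor for NK cells, had 4.15 and 12.4 CPM in macrophage-like, 7.43 and 28.5 CPM in monocyte-like and 2.01 and 5.69 CPM in FAP-like cells, higher in each. *Il18* had 29.9 and 103 CPM in monocyte-like and 13.7 and 39.1 CPM in DC-like cells, and 22.1 and 26.4 CPM in macrophage-like cells. *Il12b* had 1 and 2 UMIs in macrophage-like cells. *Cxcr3*, the receptor of both chemokines, had 39 UMIs on day 1 and 101 on day 3 over all cells. On day 3 it had 40 UMIs in DC-like cells (7.75 CPM), 38 in macrophage-like cells (1.41 CPM) and 6 in T/NK cell-like cells (41.9 CPM, 15.4 to 91.3), so most of its UMIs were outside the T/NK cell-like cells.

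Across the 19 combinations of cluster and day, the 21 pairs of GTPases had Pearson correlations of log2(CPM + 1) from 0.22 to 0.85, with a median of 0.69. *Cxcl10* correlated with them at a median of 0.65 and *Cxcl9* at a median of 0.37. Over 12 combinations of class and day, genes whose pattern was among the most like the summed GTPases, of 10195 compared, were *Idnk* (r = 0.957), *Uba7* (0.955), *Irf7* (0.940), *Usp25*, *Rtp4*, *Rnf213* and *Ifi206*. For *Cxcl9* they were *Rftn2* (0.965), *Fam171b*, *Shc1*, *Bmp5* and *Pdzrn3*, and for *Cxcl10* *Uty* (0.947), *Oas2*, *Gm20559*, *Usp25* and *Fnip1*. The points share 2 libraries and their depth, so these values describe likeness only.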

How the data were processed

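Single-cell suspensions of 2 libraries were counted by the authors with Cell Ranger (version 5.0.0 in the submitters' processing notes, 4 in the file headers) against mm10, and the deposited matrices hold raw UMI counts per gene and barcode. Barcodes were ranked by UMIs, and the top 7367 (day 1) and 6640 (day 3) were kept as cells; those with under 1000 UMIs, under 200 genes or over 7.5% mitochondrial UMIs were removed. Cells were clustered in R 4.3.3 with Seurat 5.3.0 and sctransform 0.4.2 (3000 variable features without the naming markers and the 9 members, 10 principal components, resolution 0.8) and clusters were named by marker score. Doublets were kept in the main analysis, since Scrublet (scanpy 1.11.5) called 1 and 0 cells, and 363 and 171 cells of the highest scores were removed in an alternative. Free RNA was estimated from barcodes with at most 100 UMIs. Levels, exact Poisson and Clopper-Pearson intervals and log2 ratios (0.5 added to each count, exact binomial interval) were computed in Python 3.11.15 with numpy 2.4.6, pandas 2.3.3 and scipy 1.17.1. On Poisson counts simulated for 13066 genes over all cells, 200 of them changed, 100% of the changed genes fell on the right side and 95.5% of intervals held the truth. The intervals assume the same Poisson counts, so this checks the computation only. It does not cover UMIs held by few cells or differences between mice. Named genes were the 9 members, for each list the genes of largest and smallest ratio and the regulators of the pathway, and the 8 or 5 genes most correlated with the members over genes of at least 500 UMIs; others are named in the text as chosen later. Some genes that this rule would name are not reported here. The members and lists were chosen with earlier results of these data known.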

Additional observations from a re-analysis of the deposited data

Results flagged for a closer look

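Barcodes removed for over 7.5% mitochondrial UMIs were not part of the comparisons, and they also held UMIs of the members. The values given here are above the limit that a count of 0 allows (3.59 CPM on day 1 and 0.309 CPM on day 3). There were 277 such barcodes with at least 1000 UMIs and 200 genes on day 1 (median 2349 UMIs) and 1804 on day 3 (median 2507 UMIs). *Cxcl10* had 117 CPM in them on day 1 and 123 CPM on day 3, and the 7 GTPases together 38.3 and 87.7 CPM. *Cxcl9* had 7.52 CPM on day 3.

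The ratios of *Gbp5* and *Cxcl10* differed in sign between classes, but neither was called lower in macrophage-like cells, and the difference was not tested, since each day is 1 library. The log2 ratio of *Gbp5*, day 3 over day 1, was -0.66 in macrophage-like cells, against 4.78 in FAP-like and 3.55 in monocyte-like cells. That of *Cxcl10* was -0.45 in macrophage-like cells, against 0.77 in neutrophil-like, 1.31 in DC-like, 3.41 in FAP-like and 2.38 in monocyte-like cells. The macrophage-like ratios were above 0 under 4 of 13 other settings for *Gbp5* and under 3 of 13 for *Cxcl10*.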

How the results depend on the processing

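No paired analysis was possible because each day is 1 library of pooled mice, so replicates could not be left out either. Values are log2 ratios of day 3 over day 1. Settings for FAP-like and monocyte-like cells, for the share of *Cxcl9* and for the merged macrophages were chosen after seeing the data. In macrophage-like cells the 7 GTPases (1.34) had 1.51 with only barcodes above 10% of the 99th percentile, 1.15 with a mitochondrial limit of 15%, 1.66 after log normalization, 2.16 with 20 principal components, 1.49 at resolution 0.4, 2.14 without the interferon lists among the features, 1.95 with each cell named by its highest marker score and 1.96 with monocyte-like and unnamed myeloid clusters included. Under the same settings except the mitochondrial limit, the 2 ligands together (-0.45) had -0.37, -0.0894, 0.18, -0.34, 0.00148, 0.17 and 0.33, with -0.36 at resolution 1.6, -0.62 as a mean of per-cell values and -0.73 thinned to 3000 UMIs, so their sign is not settled. *Gbp7* and *Igtp* were past 1 there under 7 of 13 settings. In monocyte-like cells the GTPases (2.02) reversed to -0.16 with 20 principal components, and had 2.18 with the 10% barcodes, 2.35 without the cells of highest doublet score, 1.007 after log normalization, 1.013 without the interferon lists, 1.32 and 2.30 at resolutions 0.4 and 1.6, and 0.32 without the interferon-led cluster. In FAP-like cells the GTPases (2.17) had 2.0001 when thinned. *Cxcl10* (3.41) had 3.75 without the cells of highest doublet score, 3.24 with each cell named by score, 3.91 with free RNA subtracted and 3.73 when thinned. *Cxcl9* (3.76) had 2.72 without its 10 richest cells. The FAP-like share of *Cxcl9* UMIs of day 3 (94.8%) was 96.4% with the 10% barcodes and 80.4% at resolution 1.6, where the class had 618 cells instead of 841. The cause of these shifts was not tested. Thinning to 1000 UMIs lowered shares of cells, that of FAP-like cells with *Cxcl9* on day 3 from 6.09% to 2.38%. Depth limits the rarer members: *Gbp5* had 61 and 34 UMIs in macrophage-like cells and *Cxcl9* 1 and 9, and a class of few cells, such as the 11 T/NK cell-like cells of day 1, cannot show a low level. A T/NK cell-like class was also formed after log normalization (192 and 240 cells) and with each cell named by score (82 and 61 cells). Under the 7 other clusterings, where no cluster was clustered again, this class had 0 cells. After log normalization 0 cells were called DC-like on either day. The T/NK cell-like class formed there had 39.96 and 94.8 CPM of the GTPases on day 1 and day 3. In the main setting DC-like cells had 33.5 and 79.6 CPM and T/NK cell-like cells 167 and 217 CPM. Whether the class formed after log normalization held the cells called DC-like in the main setting was not tested.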
